A study of Caenorhabditis elegans with 12 samples.

Results

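The change in gene expression from the L4 larval stage to day 3 of adulthood was measured within the *alh-6(lax105)* mutant of *Caenorhabditis elegans*. The 6 libraries described are the 3 of *alh-6* L4 animals and the 3 of *alh-6* day 3 adults, out of 12 libraries in all. The other 6 libraries are WT (N2 Bristol) animals at the same stages, with 3 libraries a stage. All 12 were made from whole worms fed concentrated OP50 bacteria, collected 48 hr after synchronized L1 larvae were placed on food for L4 and 120 hr after for day 3 adults. The mutant carries 1 allele, *alh-6(lax105)*, in the N2 Bristol background in every cell, and the WT animals carry none. The question addressed here is which genes were higher or lower in the adult than in the larva of the mutant, and where that stage change differed from that of WT. Of 46726 genes in the deposited table, 13798 were tested, namely those that 3 or more of the 6 mutant libraries held at 1 FPKM or above. FPKM is a count of sequenced fragments per kilobase of gene, scaled to the total counted in the library, so levels of different genes can be compared per length. The authors describe their studies as done in biological triplicate. The labels do not say that the 3 libraries of a group came from separate cultures, so the p-values measure only the spread between these libraries.

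Hermaphrodites make sperm in the L4 stage and then switch the germline to oocytes, which the adult fertilizes with its stored sperm and holds as embryos in the uterus for a time. At the end of L4 the epidermis secretes the adult cuticle, which is built mostly of collagens, and sheds the larval one. From then on the intestine makes yolk proteins that the oocytes take up. ALH-6 is the mitochondrial enzyme that oxidizes pyrroline-5-carboxylate (P5C) to glutamate in the second step of proline breakdown, and the mutant came from a screen for activators of SKN-1, a transcription factor of the oxidative stress response.

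Between 19248229 and 23575173 reads lay on genes in the *alh-6* L4 libraries, and between 19611354 and 20294269 in the *alh-6* day 3 libraries. Reads were found on 18602 to 18901 genes at L4 and on 16328 to 16437 genes at day 3. The 10 most abundant genes took 5.16% to 5.76% of the reads at L4 and 10.14% to 10.51% at day 3. Correlations of log2(FPKM + 0.1) across the genes tested were 0.984 to 0.986 between *alh-6* L4 libraries, 0.987 to 0.988 between *alh-6* day 3 libraries, and 0.595 to 0.608 between the stages. One library stood somewhat apart within its group: day 3 replicate 3 held more ribosomal protein RNA than the other day 3 libraries, as given below.

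The stage change reached most genes tested. At day 3, 3137 genes were higher and 6007 were lower by at least 2-fold with an adjusted p under 0.05 (limma with Benjamini-Hochberg adjustment over the 13798 genes). Together these were 66.3% of the genes tested, with 22.7% higher and 43.5% lower, and the counts of each gene group below are to be read against these shares. Falls were also the deeper changes, since 1980 genes fell and 211 rose by at least 16-fold. The median log2 change of all genes tested was −0.55. Dividing each library by the median of its gene-wise ratios to the geometric mean of all libraries, called rescaling below, moved this median by 0.30 to −0.26, with 3954 genes higher and 5565 lower, so that 41.5% of the calls were then higher against 34.3% as deposited. The filter is passed by genes seen at only 1 stage. FPKM was at least 1 in all 3 L4 libraries and in no day 3 library for 3156 genes, and the reverse held for 367 genes. Genes in gene families with near-identical copies, such as the major sperm protein, vitellogenin, collagen and actin genes, are uncertain one by one, because how reads shared between copies were assigned is not stated.

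**Figure D1:**
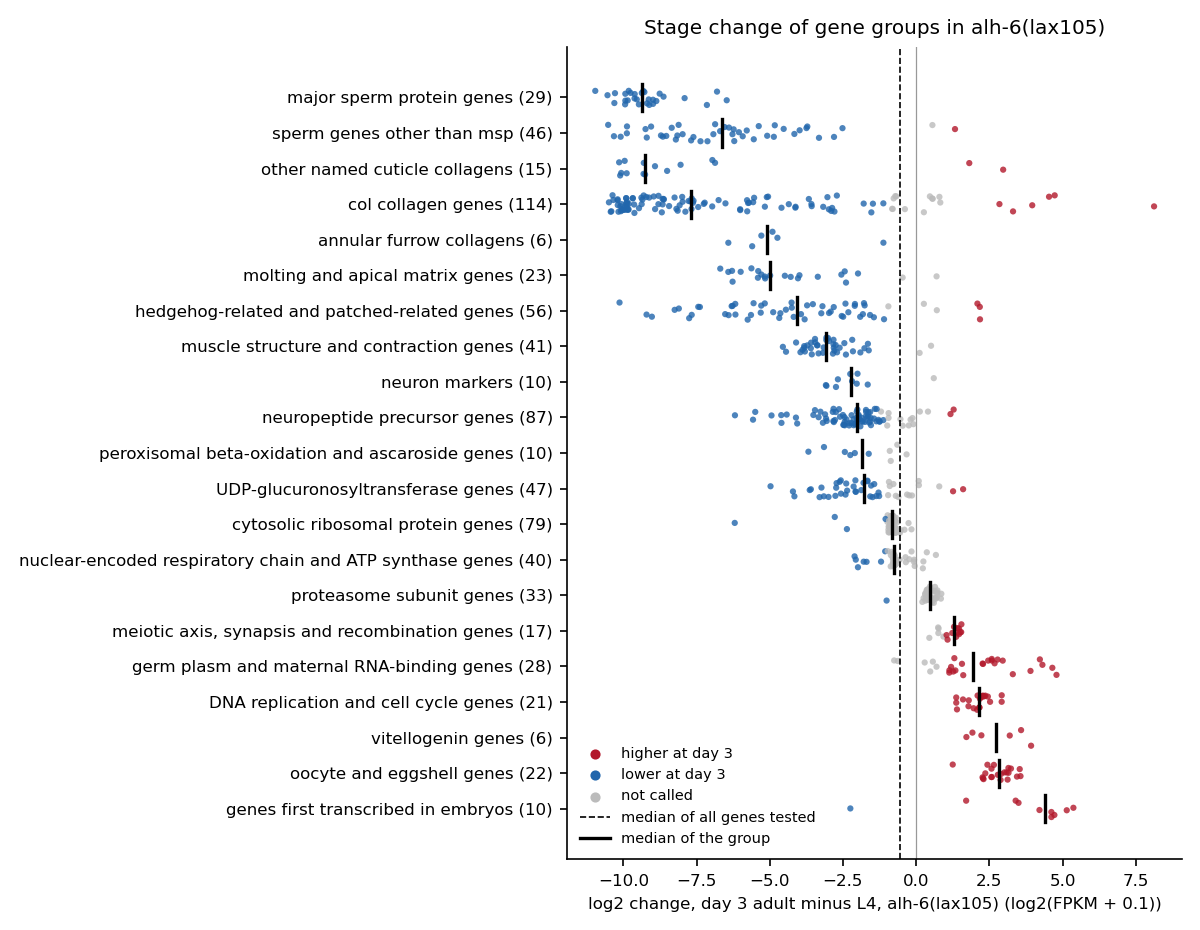
Log2 change from L4 to day 3 adult in *alh-6(lax105)* for the tested members of 21 gene groups, 1 point per gene, with the number tested after each name. Red points were called higher at day 3, blue points lower and grey points neither, the short black lines are group medians and the dashed line is the median of all genes tested (−0.55). Sperm, collagen and molting genes lie far to the left, and oocyte, replication, yolk and embryo genes lie to the right, apart from the blue point of *elt-7* among the embryo genes.

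Sperm genes fell almost throughout. The major sperm protein (MSP) is the motor and cytoskeletal protein of the crawling nematode sperm, and all 29 MSP genes tested, of 31 in the table, fell (median log2 change −9.37). Summed FPKM of the MSP genes was 5549, 6358 and 5951 in the L4 libraries and 7.34, 5.94 and 8.07 in the day 3 libraries, a difference of 836-fold. The exact two-sided permutation test of the summed values gave p = 0.10, the smallest that 3 libraries against 3 can give. Among genes whose mean over the 6 libraries reached 20 FPKM, the deepest fall was that of *msp-36* (chromosome IV, 10095433 to 10095816), from 4384, 3792 and 4230 reads at L4 to 0, 2 and 2 reads at day 3. Its values did not overlap between the stages, as was true of 90.5% of all genes tested. Of 46 other sperm genes tested, 44 fell, with a median log2 change of −6.62, or −6.79 when genes without any read at day 3 are set at the bound that 3 reads allow. Of the 46, 11 had no read at day 3 and passed the filter only through the L4 libraries. The count of falls was thus in part set by the filter. The summed FPKM of all 48 in the table, which does not depend on it, was 2557 to 2884 at L4 and 39.4 to 45.2 at day 3. *nspd-1*, a nematode-specific sperm family gene, had 1668, 1820 and 1565 reads at L4 and 2, 0 and 0 at day 3, a ratio of 2379-fold at equal depth with a 95% counting interval (exact binomial) of 658 to 19650. *ssq-1* fell from 275, 245 and 284 FPKM to 2.98, 3.52 and 4.12. The fertilization gene *spe-9*, which encodes a sperm surface protein, fell by 3.72 on the log2 scale. *fer-1*, needed for fusion of membranous organelles as sperm mature, fell by 3.75. The 2 members that did not fall were *spe-44*, a transcription factor that starts the spermatogenesis program (log2 change 0.55, under the 2-fold threshold), and *ssp-37*, which rose from 2.92, 2.53 and 2.66 FPKM to 5.77, 6.65 and 8.63.

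Oocyte genes rose as a group. All 22 genes of oocyte growth, fertilization and eggshell formation rose, with log2 changes from 1.25 to 3.56 and a median of 2.83. *cpg-2*, a chondroitin proteoglycan of the eggshell, was at 308, 319 and 345 FPKM at L4 and at 2686, 2901 and 3041 FPKM at day 3, and was among the 10 most abundant RNAs of the adult. *cpg-1* rose most in the group, by 3.56 ± 0.08 (SE) on the log2 scale with an adjusted p of 5.30e-10 in limma. The oocyte maturation regulators *oma-1* and *oma-2* rose by 2.65 and 3.54, the yolk receptor gene *rme-2* by 2.88 and the meiotic maturation regulator *lin-41* by 2.36. The sum over the group was 1714, 1852 and 1834 FPKM at L4 and 13549, 13941 and 14908 FPKM at day 3, a 7.85-fold difference without overlap.

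Of 28 genes of the germ plasm and of maternal RNA control tested, 22 rose and none fell (median log2 change 1.94). The largest rises were those of the germ granule genes *meg-4* (4.79), *meg-2* (4.65), *meg-3* (4.31) and *meg-1* (4.22) and of *nos-2* (3.90). The FPKM of *meg-4* was 1.14, 1.20 and 1.02 at L4 and 33.3, 32.3 and 35.5 at day 3. Embryonic polarity and fate regulators such as *pos-1* (3.30), *spn-4* (2.95) and *mex-5* (2.46) also rose. The 6 that were not called were *fbf-1*, *fbf-2*, *gld-2*, *glh-1*, *glh-4* and *pgl-1*, and the germline stem cell regulator *fbf-2* had the lowest change of them at −0.75. Genes of the meiotic chromosome axis, synapsis and recombination had smaller values: 12 of 17 rose and none fell, with a median of 1.29 and log2 changes from 0.45 for *syp-1* to 1.54 for *zim-2*. *zim-2* shares 223 exon bases on the same strand with *zim-1*, so their reads cannot be fully separated. All 21 DNA replication and cell cycle genes rose (median 2.16), among them the ribonucleotide reductase gene *rnr-2* from 86.9, 86.2 and 94.0 FPKM to 672, 686 and 666, the mitotic cyclin gene *cyb-3* by 2.92 and the replication clamp gene *pcn-1* by 2.36.

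Genes first transcribed in embryos were measured as markers of embryos inside the adults or of laid progeny. Only 10 of the 23 in the table passed the filter. Of these, 9 rose, from 1.71 for *ref-1* to 5.37 for *vet-2*. FPKM of *vet-2* was 0.284, 0.152 and 0.221 at L4 and 13.9, 12.1 and 12.8 at day 3. The exception was *elt-7*, an intestinal transcription factor that stays on after embryogenesis, which fell by 2.25. Genes near 0 at L4, such as *vet-2*, passed the filter only through the day 3 libraries, so the count of rises was in part set by it. The summed FPKM of all 23, which does not depend on the filter, ranged from 15.1 to 17.6 at L4 and from 47.3 to 51.9 at day 3. RNA of embryos in the uterus is part of these whole-worm libraries, and the labels do not say whether laid progeny were separated from the adults. The part of embryos or progeny in the rise of the oocyte, germ plasm and replication genes was not tested.

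Yolk protein RNA rose in all 6 vitellogenin genes. The largest rise was that of *vit-5* (chromosome X, 3403471 to 3408603), from 343, 260 and 237 FPKM at L4 to 4165, 4111 and 4313 FPKM at day 3, which is 3.92 ± 0.13 (SE) on the log2 scale with an adjusted p of 3.19e-09 (limma). *vit-6* went from 2499, 1886 and 1706 FPKM to 6617, 6449 and 6663 and was the most abundant RNA of the mutant adult. *vit-2* rose by 1.92, *vit-1* by 2.23, *vit-3* by 3.19 and *vit-4* by 3.58. Vitellogenin genes took 1.33% to 1.95% of the reads at L4 and 7.81% to 7.93% at day 3. Their summed FPKM was 4633, 3503 and 3168 at L4 and 17871, 17655 and 17956 at day 3, 4.73-fold higher and with no overlap (exact permutation p = 0.10). L4 replicate 1 was the highest of the L4 libraries for the sum and for *vit-2*, *vit-5* and *vit-6*.

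**Figure D2:**
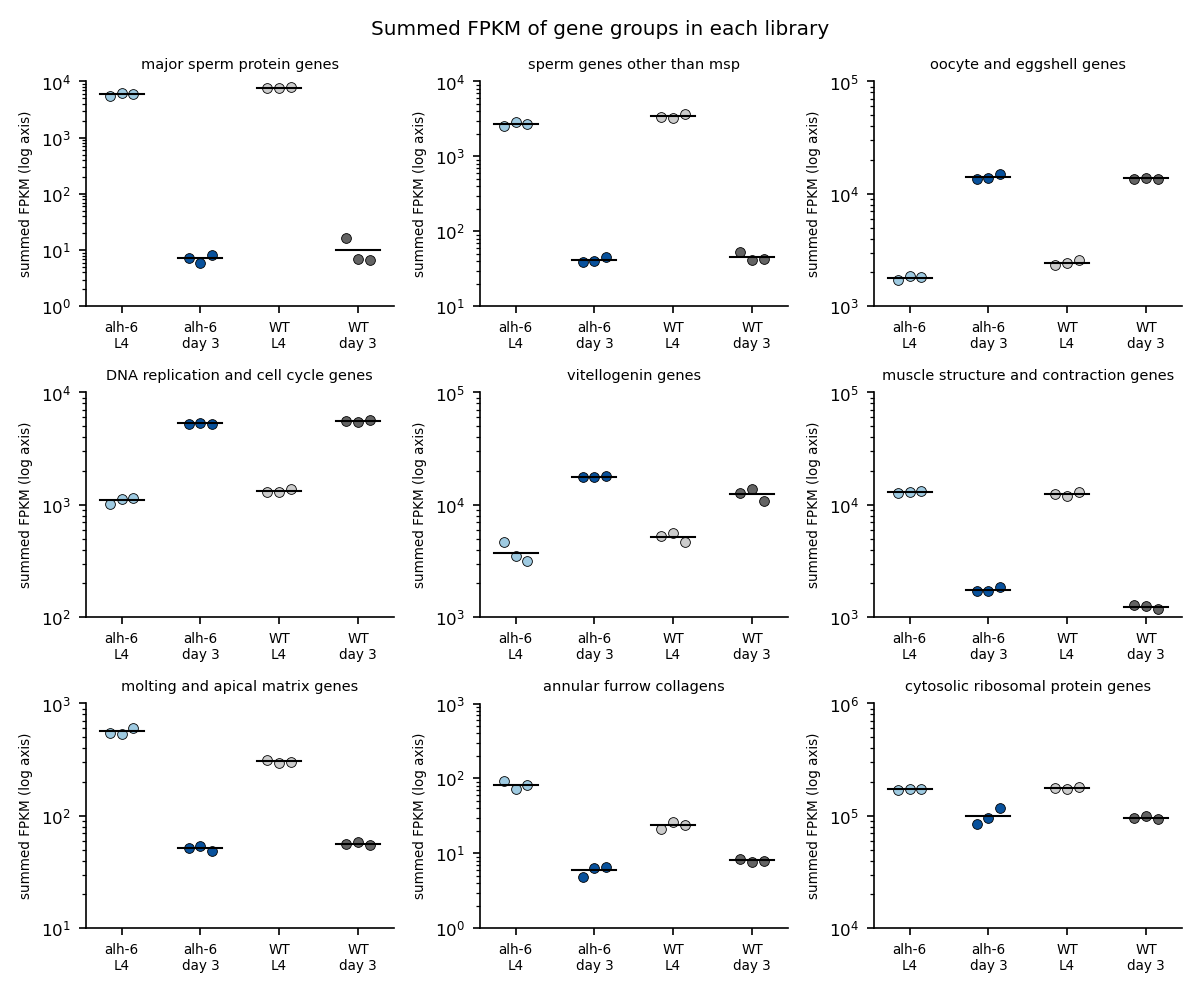
Summed FPKM (log axis) of 9 gene groups in each of the 12 libraries, with light and dark blue points for *alh-6* L4 and day 3, light and dark grey points for WT L4 and day 3, and black lines for the mean of 3 libraries. In *alh-6* the sum of the MSP genes went from between 5549 and 6358 to between 5.94 and 8.07, and in no panel do the *alh-6* points of the stages overlap.

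Cuticle genes fell on a broad front. Of 114 *col* collagen genes tested, of 156 in the table, 96 fell and 6 rose, with a median log2 change of −7.69. The summed FPKM of the 156 fell much less than this median. It was 60385 to 63330 at L4 and 6771 to 9187 at day 3, 7.83-fold lower. *col-73* fell from 2652, 2629 and 3132 FPKM to 1.88, 1.99 and 1.66, which is −10.49 ± 0.09 (SE) on the log2 scale with an adjusted p of 4.01e-12 (limma). *col-133*, *col-88* and *col-91* were also among the 10 deepest falls, each by over 10 on the log2 scale. The 6 *col* genes that rose were *col-95*, *col-101*, *col-158*, *col-143*, *col-135* and *col-116*. Of these *col-95* went from 2.80, 1.86 and 2.85 FPKM to 640, 701 and 811, and *col-101* from a mean of 26.7 to a mean of 695 FPKM. Among 15 other cuticle collagens named for their effect on body shape, 13 fell (median −9.26), such as *dpy-5* from 1551, 1545 and 1933 FPKM to 1.53, 1.39 and 1.21, while *dpy-17* and *dpy-14* rose by 1.81 and 2.97. All 6 collagens of the annular furrows, the rings that mark the cuticle, fell, with log2 changes of −6.42 for *dpy-8*, −5.602 for *dpy-7*, −5.29 for *dpy-3*, −4.91 for *dpy-9*, −4.74 for *dpy-2* and −1.12 for *dpy-10*. The fall of *dpy-10* was no longer 2-fold after rescaling. Cuticlins, which form insoluble cuticle structures, fell in 14 of 15 cases, with *cut-2* going from 526, 494 and 524 FPKM to 1.05, 0.688 and 0.962. Of 9 enzymes that process or crosslink collagen, 7 fell, among them the prolyl hydroxylase genes *dpy-18* (−3.12) and *phy-2* (−3.01), while *dpy-11* (−0.79) and *dpy-31* (−0.97) were not called.

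Molting genes fell with the collagens. Of 23 molting and apical matrix genes tested, 21 fell and none rose (median −4.99). *mlt-8* went from 112.3, 118 and 130 FPKM to 1.36, 0.763 and 1.13, *qua-1* fell by 6.42, and the peptidase-like gene *acn-1*, needed to shed the old cuticle, fell by 6.29. The apical matrix genes *noah-1* and *noah-2* fell by 3.99 and 3.36. Not called were the apical matrix gene *let-653* (−0.46) and *nhr-23* (0.70), which encodes a nuclear receptor that drives molting in larvae. Hedgehog-related and patched-related genes, whose products are secreted by or span the membranes of the epidermis, fell in 50 of 56 cases (median −4.06). *grl-16* had the deepest fall of the group, from 929, 895 and 1003 FPKM to 0.643, 0.914 and 0.684. The 3 that rose were *ptr-2* (2.18), *grd-4* (2.17) and *ptc-1* (2.09). Of 9 heterochronic genes, which time larval cell fates, *lin-42* (−4.04), *lin-29* (−3.27), *lin-14* (−2.86), *lin-46* (−2.42) and *dre-1* (−1.14) fell, the last no longer by 2-fold after rescaling (−0.84). *lin-28* rose, from 25.3, 26.2 and 27.6 FPKM to 68.2, 70.7 and 66.6.

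Muscle genes were lower throughout the sarcomere. Of 41 genes of muscle structure and contraction, 39 fell and none rose (median −3.07). *unc-54*, the major body wall myosin heavy chain gene, fell by 3.72, the paramyosin gene *unc-15* by 3.18, the troponin I gene *tni-1* (log2 change −4.55), and the perlecan gene *unc-52*, which anchors muscle to the basement membrane, fell by 4.10. *pat-10*, which encodes troponin C, was the most abundant of the group and went from 2227, 2170 and 2159 FPKM to 303, 309 and 334. The 2 not called were the integrin gene *pat-3* (0.51) and the myosin chaperone gene *unc-45* (0.12). The summed FPKM was 12867, 12935 and 13289 at L4 and 1700, 1701 and 1860 at day 3, 7.43-fold lower (exact permutation p = 0.10). In RNA from whole worms, less RNA per cell of a tissue and more RNA from other cells cannot be told apart. A share of all RNA also falls when other RNA rises.

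Most listed markers of neurons and of the intestine were lower too. Of 10 neuron markers, 9 fell (median −2.22), among them the synaptotagmin gene *snt-1* by 3.08 and the neuropeptide-processing genes *egl-21* by 2.25 and *egl-3* by 2.00, while *snb-1*, the synaptobrevin gene, was at 0.60 and not called. Neuropeptide precursor genes fell in 73 of 87 cases and rose in 2, *nlp-59* (1.28) and *nlp-56* (1.17). Of 5 intestine markers 4 fell: *ifb-2*, an intermediate filament gene of the intestinal brush border region, from 390, 332 and 319 FPKM to 8.98, 8.77 and 10.57, *act-5*, the microvillus actin gene, by 3.63, the intestinal master regulator *elt-2* by 2.67 and the esterase gene *ges-1* by 1.24. The metallothionein gene *mtl-2* (0.95) was not called. Genes of the intestine outside this list of 5 went the other way. The vitellogenin genes took 1.33% to 1.95% of reads at L4 and 7.81% to 7.93% at day 3, and *mtl-1* rose by 8.31. The 5 markers therefore do not stand for all RNA of the intestine. After rescaling *mtl-2* was called higher (1.25) and *ges-1* lost its call (−0.94).

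RNAs of the translation machinery and of respiration mostly had smaller changes per gene than these. Only 4 of 79 cytosolic ribosomal protein genes fell by 2-fold and none rose, although the group median was −0.81 and all 79 log2 changes were below 0. Without the fold threshold 74 of the 79 were lower (adjusted p under 0.05, limma). The group took 10.5% to 10.7% of reads at L4 and 5.28% to 7.05% at day 3. The deepest of these falls was that of *rpl-42*, from 7.68, 8.11 and 12.0 FPKM to 0, 0.0963 and 0. The summed FPKM was 171004, 172657 and 174273 at L4 and 85534, 95359 and 117448 at day 3, so day 3 replicate 3 was closest to L4. Without that library 19 ribosomal protein genes were called lower. Of 40 nuclear genes for the respiratory chain and ATP synthase, 7 fell and none rose (median −0.76), with *asb-2*, an ATP synthase subunit gene, going from 417, 366 and 381 FPKM to 85.4, 87.7 and 97.3. Of 14 genes of the mitochondrial genome tested, 7 fell (median −1.09), but none was called lower after rescaling. The count was 3 without day 3 replicate 3, 4 without L4 replicate 2 and 12 without L4 replicate 1. The mitochondrial genome took 1.14% to 1.44% of reads at L4 and 0.511% to 0.778% at day 3. Proteasome subunit genes had a median of 0.47, with 1 of 33 called, the paralog *rpn-6.2* (−1.01), which lost its call in 4 of the 6 fits with 1 library left out. After rescaling the proteasome median was 0.78, and 6 subunit genes were called higher and none lower. Without the fold threshold, and as deposited, 32 of the 33 were higher and 1 lower. The 32 aminoacyl-tRNA synthetase genes had a median of 0.02 and 1 call, the rise of *rars-2* (1.57). Of 18 listed heat shock protein genes 7 fell, with the small heat shock gene *hsp-12.2* falling most (−3.29), and none rose. After rescaling 1 of them was called higher. The small heat shock family gene *sip-1*, which is not in this list, rose, as given below.

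Proline enzymes were examined because the mutation lies in this pathway. *alh-6* RNA itself (chromosome II, 1306240 to 1310133) was present in the mutant, at 60.9, 62.6 and 60.6 FPKM at L4 and 34.8, 32.0 and 34.0 FPKM at day 3. The log2 change of −0.87 ± 0.07 (SE) had an adjusted p of 1.19e-06 in limma but stayed under 2-fold, and the WT values were 69.7 ± 1.2 (SD, n = 3) at L4 and 33.2 ± 1.1 (SD, n = 3) at day 3. A level of *alh-6* RNA like that of WT neither supports nor contradicts the genotype labels, since the files do not show the sequence of the transcripts. *alh-13*, the bifunctional enzyme gene that makes P5C from glutamate, fell from 123, 111 and 130 FPKM to 8.12, 8.05 and 7.83 (−3.91). *pycr-1*, a reductase gene for the last step of proline synthesis, fell from 107, 103 and 116 FPKM to 2.90, 3.49 and 4.52 (−4.88). *prdh-1*, which encodes the FAD-dependent proline dehydrogenase upstream of ALH-6, fell from 12.4, 14.9 and 13.9 to 2.85, 2.41 and 3.18 FPKM (−2.25). The reductase paralog *pycr-4* stayed between 33.9 and 41.6 FPKM in all 6 libraries (0.13, adjusted p = 0.15 in limma).

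Riboflavin is the vitamin from which FAD is made. Its transporter genes moved apart: *rft-1* fell by 2.15, from 4.97, 5.66 and 5.602 FPKM to 1.37, 0.928 and 1.17, and its neighbour *rft-2* rose by 1.31, from 12.0, 13.6 and 15.1 FPKM to 36.98, 36.77 and 28.04. The FAD synthesis genes *flad-1* (FAD synthetase, 0.82) and *rfk-1* (riboflavin kinase, R10H10.6, 0.47) were higher at day 3 by less than 2-fold, with adjusted p of 5.41e-06 and 0.024 in limma. The values of *rfk-1* overlapped between the stages, at 9.81, 13.4 and 9.19 FPKM at L4 and 14.2, 17.6 and 12.9 FPKM at day 3, while those of *flad-1* did not overlap. *flad-1* passed the 2-fold threshold after rescaling. Of the mitochondrial dynamics genes, the fission gene *drp-1* rose from 38.5, 41.1 and 40.7 FPKM to 102, 104.5 and 92.7 (1.31). The fusion genes *fzo-1* (0.79) and *eat-3* (0.29) were not called, although *fzo-1* passed 2-fold after rescaling.

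Genes of the SKN-1 group did not move as one. *skn-1* itself rose from 46.7, 45.9 and 45.7 FPKM to 99.3, 102 and 98.5 (1.11). Among the 10 genes of the group, which includes *skn-1*, *gst-7* (1.67) and *gst-30* (2.98) also rose and *gst-10* fell (−2.33), from 154, 147 and 149 FPKM to 29.02, 26.7 and 34.2. *gst-4*, the glutathione S-transferase gene whose promoter is the usual SKN-1 reporter, was at 48.2, 50.1 and 49.3 FPKM at L4 and 99.0, 86.4 and 94.96 FPKM at day 3, a log2 change of 0.92 that missed the 2-fold threshold and passed it after rescaling. It shares 65 exon bases on its own strand with *dhs-12*. *gcs-1*, the rate-limiting enzyme gene of glutathione synthesis, had a log2 change of 0.32, *wdr-23*, which encodes a repressor of SKN-1, 0.99, *nit-1* 1.00, *sdz-8* 0.64 and *dhs-8* −0.48, and none of these was called. After rescaling *wdr-23* (1.29) and *nit-1* (1.30) were called higher too, so that 6 of the 10 rose. In the wider family of glutathione genes 5 of 39 rose and 18 fell, with *gsto-2* rising most (3.79) and *gst-28* falling most (−4.61). Of 13 genes that remove reactive oxygen, the catalase gene *ctl-3* (1.63) and the mitochondrial superoxide dismutase gene *sod-3* (1.57) rose and the peroxisomal catalase gene *ctl-2* (−1.05) fell, the last no longer by 2-fold after rescaling. The median of this group changed sign with rescaling, from −0.06 to 0.24.

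**Figure D3:**
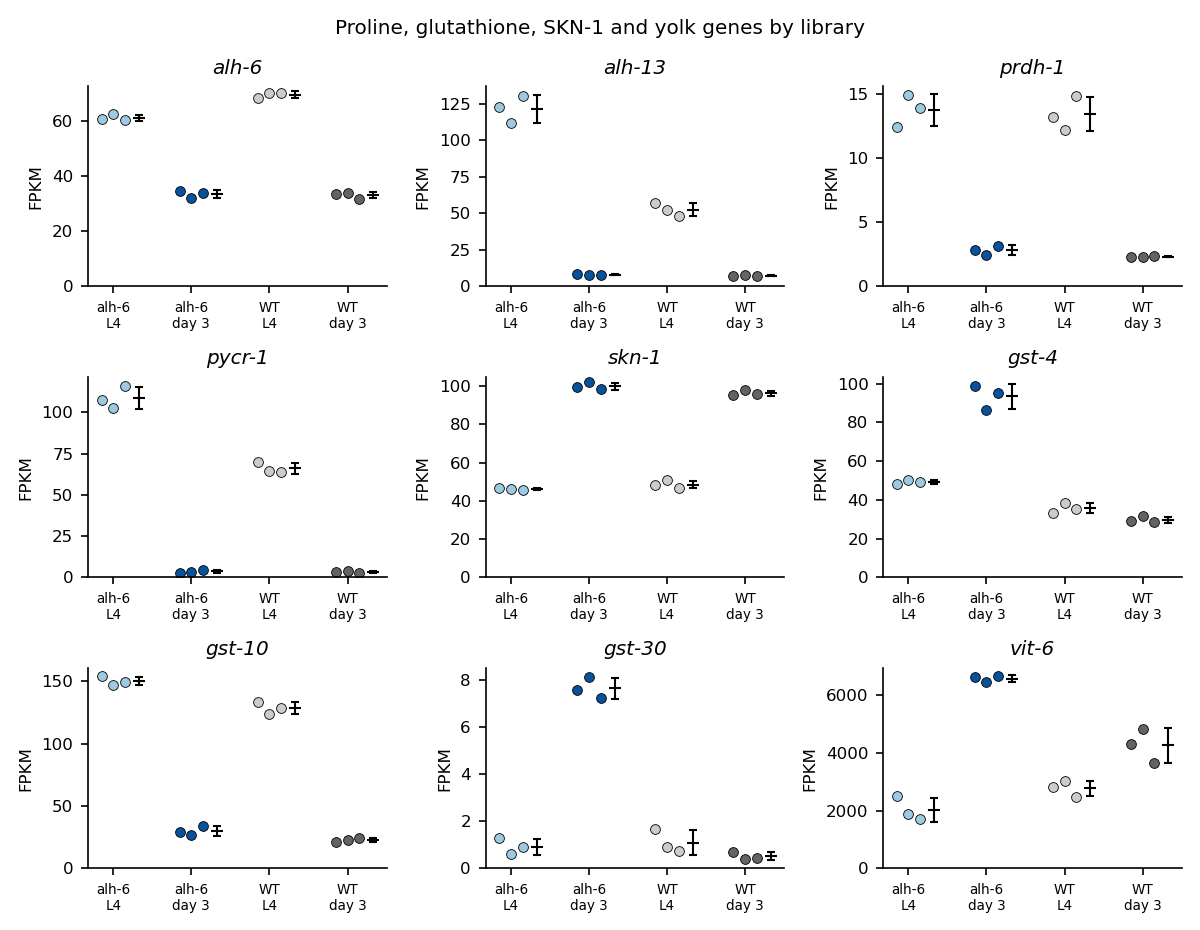
FPKM of 9 genes in each library on linear axes from 0, with light and dark blue points for *alh-6* L4 and day 3, light and dark grey points for WT L4 and day 3, and black marks for the mean and SD of 3 libraries. At day 3 *gst-30* is between 7.24 and 8.12 FPKM in *alh-6* and between 0.406 and 0.698 in WT, and *alh-13* at L4 is between 111 and 130 in *alh-6* and between 48.2 and 56.8 in WT.

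Lipid and digestive lists are to be read against the 43.5% of all genes that fell and the 22.7% that rose. Of 16 fatty acid desaturase and elongase genes, 10 fell and *fat-5*, a palmitoyl-CoA desaturase gene, rose (1.05, under 2-fold without day 3 replicate 3). *elo-7*, an elongase gene, had 6.83, 7.14 and 7.63 FPKM at L4 and no read at day 3, at least 127-fold lower against a floor of 3 reads over the 3 libraries. The polyunsaturated fatty acid enzyme genes *fat-1* (−0.06), *fat-2* (−0.07), *fat-3* (0.00) and *fat-4* (−0.18) were not called. Peroxisomal side chain shortening genes, which make the ascaroside pheromones, fell in 6 of 10 cases, with *daf-22* at −2.25 and *dhs-28* at −2.44. Of 9 fatty acid binding protein genes 4 fell and 2 rose, with *lbp-7* going from 91.0, 97.6 and 81.0 to 5.30, 5.38 and 3.51 FPKM and *lbp-9* from 369, 423 and 435 to 881, 982 and 1012 FPKM. The median of this group also changed sign with rescaling, from −0.24 to 0.06. Among 18 cathepsin B and aspartyl protease genes 11 fell and *asp-17* rose. *asp-1*, an aspartyl protease gene among the 10 most abundant RNAs at L4, fell from 4526, 3424 and 3738 to 524, 543 and 523 FPKM.

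Secreted lectin, detoxification, receptor and F-box families held both risers and fallers, as did all genes tested, of which 22.7% rose and 43.5% fell. Of 80 C-type lectin genes 50 fell and 11 rose, with *clec-87* rising from a mean of 130 to a mean of 1365 FPKM, *clec-88* by 3.55 and *clec-91* by 3.44. Cytochrome P450 genes rose in 13 and fell in 14 of 45 cases, and the risers included *cyp-31A2* (2.32), *cyp-31A3* (2.05) and *cyp-31A5* (2.40), paralogs whose reads may be shared. UDP-glucuronosyltransferase genes fell in 33 of 47 cases and rose in 2. Lysozyme genes fell in 4 and rose in 2 of 12 cases, the latter being *lys-7* (1.48) and *ilys-3* (2.67). Nuclear hormone receptor genes fell in 101 of 154 cases and rose in 9, with *nhr-114* falling from 214, 204 and 167 to 14.5, 12.2 and 14.6 FPKM and the early embryonic gene *nhr-2* rising from 0.234, 0.258 and 0.239 to 12.8, 12.2 and 10.4 FPKM. F-box genes of the A, B and C families fell in 41 and rose in 28 of 101 cases, near the shares of all genes tested. Their median log2 change of −0.55 was also that of all genes tested. Among them *fbxa-215* rose from 34.7, 37.8 and 34.6 to 259, 231 and 217 FPKM.

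Among genes whose mean over the 6 libraries reached 20 FPKM, the largest rise was that of *mtl-1* (chromosome V, 6691371 to 6691863), a metallothionein gene of the intestine, from 0.113, 0.554 and 0.641 FPKM to 121, 144 and 190 FPKM (8.31 ± 0.50, SE, on the log2 scale, adjusted p = 6.72e-06 in limma). After *col-95* came C45H4.14 (7.33), the caveolin gene *cav-1* (7.23), the short-chain dehydrogenase gene *dhs-26* (6.75), *spex-3* (6.70), C08F11.12 (6.63), *ule-1* (6.03), named for expression in the uterine lumen, F15A4.10 (5.86) and C10G8.4 (5.77). *spex-3* was at 138 and 136 FPKM in day 3 replicates 1 and 2 and at 295 in replicate 3. The deepest falls, beside those named above, were *msp-81*, *rol-1*, Y47D7A.15 and C02E7.7, the last from 917, 1164 and 1152 FPKM to 0.847, 0.498 and 0.819. At L4 the most abundant RNAs were *eef-1A.1*, a translation elongation factor gene, Y37E3.8 and the ribosomal protein genes *rpl-13*, *rps-23*, *rps-25*, *rps-5*, *rpl-36*, *rpl-19* and *rpl-36.A*, with *asp-1*. At day 3 *eef-1A.1*, *rpl-13*, Y37E3.8 and *rps-25* kept a place among the first 10. The other 6 were *vit-6*, *vit-2*, *vit-5*, *cpg-2*, *cey-2*, a Y-box RNA-binding gene that rose by 1.75, and *sip-1*, a small heat shock family gene that went from 192, 207 and 194 FPKM to 2727, 2841 and 3804.

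The stage change of the mutant followed that of WT for most genes. Across the 13365 genes tested in both genotypes the log2 changes had a Pearson r of 0.980 and the same sign in 95.9% of genes. These are descriptions across genes, which are not independent replicates, and the libraries of the 2 genotypes are separate. Of the rises called in *alh-6*, 89.9% were also called in WT, and of the falls 88.5%, while 90.7% of the rises and 93.6% of the falls called in WT were called in *alh-6*. The difference between the stage changes was tested as a genotype by stage term over all 12 libraries and 14497 genes. It was called for 422 genes (2.91%), with 140 positive and 282 negative (limma, adjusted p under 0.05 and at least 2-fold). A positive difference means a larger rise or a smaller fall in *alh-6* than in WT. Of the 282 negative differences, 261 were in genes that fell in *alh-6*, so that most were deeper falls. Without WT L4 replicate 3 the negative count was 182. After rescaling, 182 differences were positive and 242 negative, and the median difference of the genes tested changed sign, from −0.03 to 0.05.

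**Figure D4:**
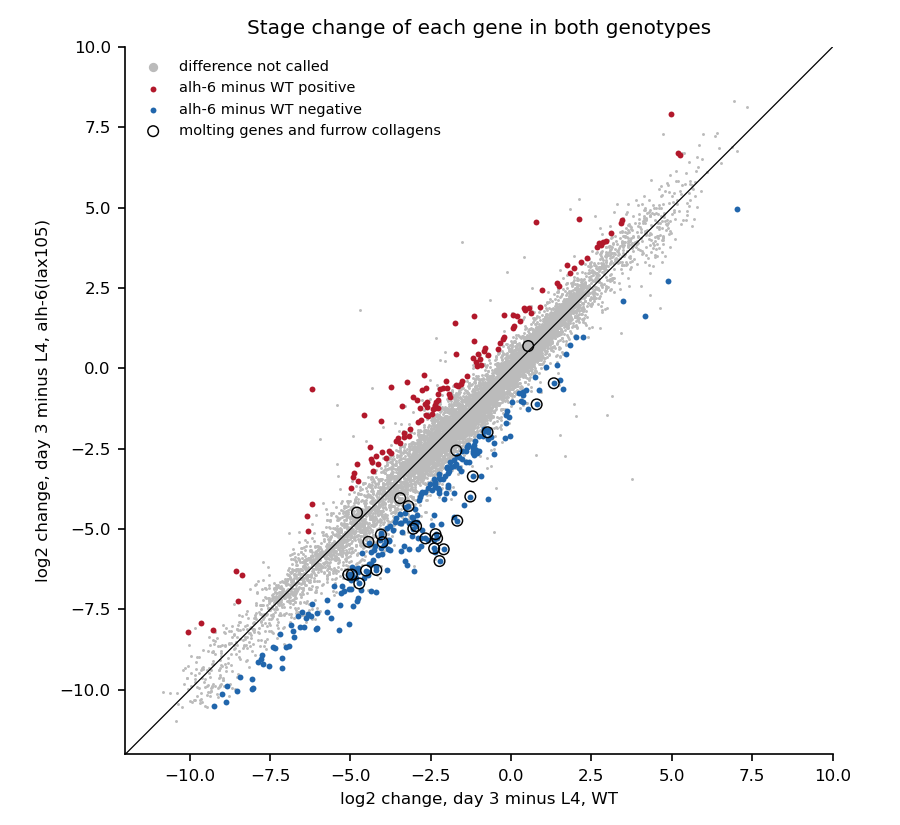
Log2 change from L4 to day 3 adult in WT (x axis) and in *alh-6(lax105)* (y axis) for the 13365 genes tested in both genotypes, 1 point per gene, with the line of equal change. Coloured points passed the test of the difference (red positive, blue negative), and circled molting genes and furrow collagens lie mostly below the line.

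Molting genes and furrow collagens differed most as groups. In 16 of 23 molting and apical matrix genes and in all 6 furrow collagens the difference was negative, against 1.95% of all genes tested, and the group medians were −1.77 and −2.28. These lists were chosen with earlier results of these data known, so the counts are only descriptions. With 1 of the 12 libraries left out, 13 to 15 molting genes and 5 or 6 furrow collagens were called, and with a pseudocount of 0.01 the furrow count was 4. The summed levels of both groups were higher in *alh-6* than in WT at L4 and lower at day 3, without overlap at either stage. The summed FPKM of the furrow collagens was 72.9 to 92.3 in *alh-6* L4 and 20.8 to 26.4 in WT L4, against 4.81 to 6.63 in *alh-6* day 3 and 7.71 to 8.48 in WT day 3. That of the molting genes was 540 to 607 in *alh-6* L4 and 299 to 313 in WT L4, and 48.3 to 54.2 and 55.0 to 58.2 at day 3. For *dpy-7* FPKM was 17.2, 14.8 and 18.4 in *alh-6* L4 and 4.45, 5.55 and 3.92 in WT L4. At day 3 *dpy-7* was at 0.0884, 0.519 and 0.256 in *alh-6* and at 0.932, 0.657 and 0.809 in WT, and the difference of the stage changes was −3.21 (adjusted p = 0.0021, limma). Hedgehog-related and patched-related genes had 16 negative and 2 positive differences among 56, and the other named cuticle collagens 4 negative among 15. Molting genes change with the hour within the L4 stage, and the labels give 1 collection time for L4, so stage within L4 and genotype cannot be told apart here.

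Other differences lay at L4, at day 3 or at both. The vitellogenins *vit-6* (1.10), *vit-5* (1.05) and *vit-2* (1.02) had positive differences, with summed vitellogenin FPKM at L4 of 3168 to 4633 in *alh-6* and 4696 to 5660 in WT and at day 3 of 17655 to 17956 in *alh-6* and 10873 to 13946 in WT. No vitellogenin passed the 2-fold threshold without *alh-6* L4 replicate 3 or without WT day 3 replicate 3. The proline gene *alh-13* had a difference of −1.09 (adjusted p = 0.00035, limma), with WT L4 values of 56.8, 52.2 and 48.2 FPKM against 123, 111 and 130 in *alh-6* L4. At day 3 *alh-13* was at 7.83 to 8.12 FPKM in *alh-6* and at 6.92 to 7.97 in WT. Against 0.966% of all genes, 3 of the 10 genes of the SKN-1 group had positive differences: *gst-30* (3.88), *sdz-8* (1.45) and *gst-4* (1.18). The list was chosen with earlier results of these data known, so this share is only a description. In WT *gst-4* was at 35.7 ± 2.4 FPKM (SD, n = 3) at L4 and 29.8 ± 1.6 (SD, n = 3) at day 3, against a mean of 49.2 at L4 and 93.5 at day 3 in *alh-6*. The muscle genes *unc-54* (1.26) and *unc-15* (1.10) had positive differences, and the muscle sum at day 3 was 1700 to 1860 FPKM in *alh-6* and 1183 to 1291 in WT. Of the oocyte, germ plasm, meiosis, replication and embryo groups, no gene was called. At L4 the oocyte sum was 1714 to 1852 FPKM in *alh-6* and 2350 to 2559 in WT. The replication sum was 1016 to 1161 and 1295 to 1394, and the MSP sum 5549 to 6358 and 7537 to 7957. Germ plasm and meiosis sums were also lower in *alh-6* L4 without overlap, while the embryo sums overlapped. As for the molting genes, stage within L4 and genotype cannot be told apart for any L4 value here.

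Chromosomes differed in the balance of calls. On the X chromosome 58.4% of 1850 genes tested were lower and 15.4% higher (median −1.48), and on chromosome V 50.2% of 2561 were lower (median −1.02). On chromosome III 31.6% were lower and 26.6% higher (median 0.09), and on chromosome I 35.01% of 2302 were lower and 28.2% higher (median 0.00, or 0.30 after rescaling). How the kinds of genes on each chromosome bear on this balance was not tested. In WT the medians had a like order, with −1.26 on X and 0.18 on III. In *alh-6* the X chromosome took 9.81% to 10.8% of reads at L4 and 9.74% to 9.92% at day 3, ranges that overlap. In WT the X share was 9.42% to 10.1% at L4 and 7.89% to 8.79% at day 3, without overlap. The X-linked genes *vit-2* and *vit-5* were among the 10 most abundant at day 3, and their part in the X share was not tested.

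**Figure D5:**
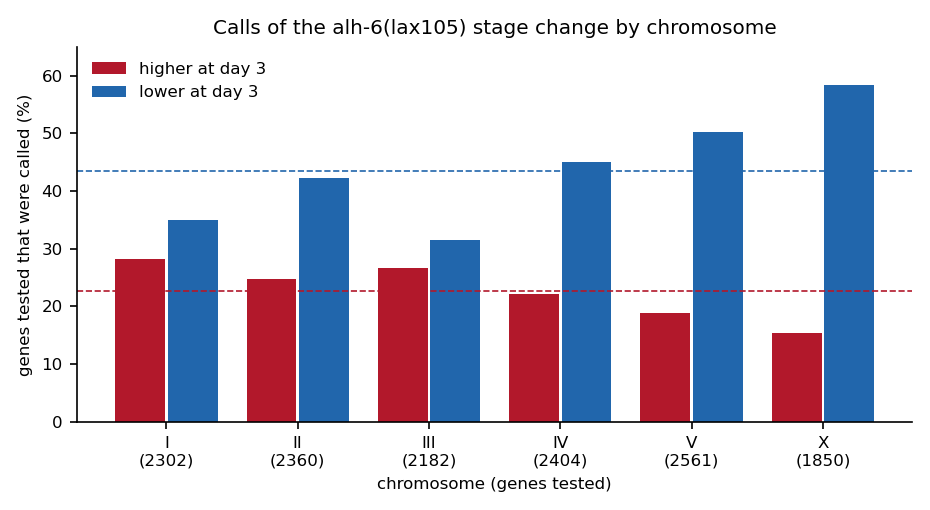
Share of the genes tested on each nuclear chromosome that were called higher (red) or lower (blue) at day 3 than at L4 in *alh-6(lax105)*, with the number tested under each name. Dashed lines are the shares over all genes tested (22.7% and 43.5%), and the blue bar of the X chromosome stands at 58.4%.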

How the data were processed

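RNA of whole worms was sequenced in 12 libraries. The authors deposited FPKM for each library, and 2 further tables, 1 per stage, that hold the signal of group mean normalized read counts, used here to recover depth. Their fold changes, p-values and significance between genotypes were not used. The submitters' processing notes name CASAVA 1.8, Bowtie2 2.2.3, TopHat2 2.0.12, HTSeq 0.6.1, DESeq 1.18.0 and the ce11 build. Whether counting used strand is not given in the sources used here. FPKM and the deposited means together gave whole reads for 100% of values (tolerance 0.01). Counting intervals cover counting error only.

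Gene positions come from the WBcel235 annotation (release 115). Values of log2(FPKM + 0.1) were fitted by limma 3.58.1 (R 4.3.3), with a robust variance trend, where at least 3 libraries reached 1 FPKM. Calls needed an adjusted p under 0.05 and an absolute log2 change of at least 1. On this scale the pseudocount of 0.1 understates changes of low genes. The term (*alh-6* day 3 − *alh-6* L4) − (WT day 3 − WT L4) was tested in a fit of 12 libraries. Fits were tested on simulated data. Sums over groups were compared by the exact permutation test. Groups were 41 gene lists, whose members, like all tests and rules, were chosen with earlier results of these data known; 8 list names found no gene in the table, and the genes of the mitochondrial genome were taken by chromosome. Named genes were *alh-6* and the proline, FAD, mitochondrial dynamics and SKN-1 lists, the 10 largest rises and falls at a mean of at least 20 FPKM without overlap, the 10 most abundant genes of each stage, extremes of each list, and the 5 largest differences from WT in each direction at a mean of at least 5 FPKM. Other genes named as examples were chosen after their values were seen. Alternatives were pseudocounts of 1 and 0.01, no filter, no fold threshold, rescaling, all 12 libraries, a replicate block, limma-voom on the recovered reads and each library left out.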

Additional observations from a re-analysis of the deposited data

Results flagged for a closer look

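The genes below had a stage change in *alh-6* that differed from that in WT by the genotype by stage test (limma, adjusted p under 0.05, at least 2-fold), and their differences are on the log2 scale.

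In the epidermis and cuticle groups the differences were negative for *dpy-7* (−3.21), *mlt-8* (−1.97), *cut-2* (−1.89), *dpy-8* (−1.46), *col-73* (−1.24) and *grl-16* (−1.12), and positive for *grl-21* (2.27). That of *dpy-8* was called in only 2 of the 12 fits with 1 library left out and that of *grl-16* in 11. *grl-21*, a ground-like gene, was at 39.9, 40.7 and 28.5 FPKM in *alh-6* L4 and at 78.4, 78.5 and 79.8 in WT L4.

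Stress and metabolic genes were *gst-30* (3.88), *gsto-2* (3.69), *sdz-8* (1.45), *gst-4* (1.18) and *alh-13* (−1.09). *gsto-2*, an omega class glutathione transferase gene, was at 3.95, 4.79 and 4.61 FPKM in *alh-6* day 3 and at 0.263, 0 and 0.383 in WT day 3. Its difference was called in 9 of the 12 fits with 1 library left out.

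Yolk genes were *vit-6* (1.10), *vit-5* (1.05) and *vit-2* (1.02). The protease gene *asp-17* had a difference of 1.20 and *ssp-37* one of 1.23. With each of the 12 libraries left out in turn, the difference of *vit-2* was called in 8 fits, those of *vit-5* and *vit-6* in 10 and that of *ssp-37* in 3.

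Among the 5 most negative differences were the neuropeptide gene *nlp-34* (−3.34), F15B9.8 (−2.90), Y102A11A.5 (−2.88) and F33D4.6 (−2.77), and C02E7.7 had −1.51. F33D4.6 was at 38.7, 44.97 and 49.8 FPKM in *alh-6* L4 and 17.8, 16.9 and 16.3 in WT L4.

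The most positive difference was that of 21ur-10387 (5.54), the locus of a 21-base piRNA at which 1 read gives a high FPKM. F56D6.9 (2.94) had no read in *alh-6* L4 and 16.4, 19.9 and 41.6 FPKM in *alh-6* day 3, against 5.31, 4.12 and 3.70 in WT day 3. It shares 237 exon bases on its own strand with *oac-21*. *icmt-1* (2.50) stayed between 5.63 and 11.1 FPKM in all 6 *alh-6* libraries and went from between 7.80 and 9.28 to between 0.993 and 1.54 in WT. F53B2.8 (2.16) was at 46.1 to 54.7 FPKM in *alh-6* L4 and 95.7 to 107 in WT L4, and at 23.2 to 32.2 and 11.3 to 13.8 at day 3. C08F11.12 had a difference of 1.37. With each of the 12 libraries left out in turn, that of C08F11.12 was called in 8 fits and that of Y102A11A.5 in 10.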

How the results depend on the processing

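The stage change called 3137 genes higher and 6007 lower. With pseudocounts of 1 and 0.01, no filter, rescaling, the fit of all 12 libraries and limma-voom, the counts stayed within 1.5 times of these, and without a fold threshold 5085 were higher and 7295 lower. With 1 library left out, 3015 to 3207 were higher and 5946 to 6044 lower, and 8677 of the 9144 calls held in all 6 such fits. The difference from WT called 140 positive and 282 negative. It called 101 to 146 positive and 182 to 303 negative with 1 library left out, and 99 and 231 with a pseudocount of 1. With a pseudocount of 0.01 the counts were 123 positive and 193 negative, and after rescaling 182 and 242, a smaller excess of negative differences. With the replicate number as a block, 3134 genes were higher and 6000 lower in the stage change, and 126 positive and 251 negative in the difference. Deviations of same-numbered L4 and day 3 libraries from their group means correlated by 0.08, 0.01 and 0.05, so the numbers were not taken to pair the libraries. An L4 library correlated best with the day 3 library of its own number in 2 of 3 cases. The log2 ratios of the sums ranged from −9.81 to −9.59 (MSP), 2.13 to 2.42 (vitellogenins) and −2.94 to −2.87 (muscle) with 1 library left out. Of 143 genes named by rule, none that was called changed direction under these alternatives. The difference of Y102A11A.5 was not called with a pseudocount of 0.01 (adjusted p = 0.13) or without WT L4 replicate 3 or WT day 3 replicate 1 (0.053 each), that of F56D6.9 with a pseudocount of 0.01 (0.11), and that of 21ur-10387 with a pseudocount of 1 (0.17). The cause was not tested. Depth limits 224 called genes with a mean of under 10 reads, whose fold changes are imprecise.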
